A study of Mus musculus and Sus scrofa with 18 samples.

Results

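Voltage-gated sodium channels carry the inward current that starts and propagates the action potential. Each channel has a pore-forming alpha subunit, encoded in the brain by Scn1a, Scn2a, Scn3a and Scn8a, with Scn9a best known from sensory and sympathetic neurons, and smaller beta subunits with a single membrane span, among them those encoded by Scn2b, Scn3b and Scn4b. The beta subunits tune the gating and the surface level of the pore and act as adhesion molecules. Beta 4, the product of Scn4b, is abundant in the projection neurons of the striatum, and its cytoplasmic tail can act as an open-channel blocker that gives rise to resurgent sodium current. The values below describe 8 of these genes, the alpha subunit genes Scn1a, Scn2a, Scn3a, Scn8a and Scn9a and the beta subunit genes Scn2b, Scn3b and Scn4b, among 55357 genes counted in the mouse striatum. They were taken by name. Scn4b was picked because it falls strongly in HD mice, so its values against WT are given as a description without a test. The other 7 genes are named with no such reason, though earlier results of these data were known when the list was made.

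Striatal RNA of 9 mice was sequenced, with 3 mice in each of 3 groups and 1 library per mouse. WT mice received AAV-Ctrl gRNA, an adeno-associated virus with a control guide RNA and no CasRx. Untreated mice were heterozygous HD 140Q-KI mice, whose own huntingtin gene carries an expanded CAG repeat, and received AAV9-CasRx with AAV9-Ctrl gRNA. Treated mice were HD 140Q-KI mice that received AAV9-CasRx with AAV9-HTT gRNA1+2 and gRNA3+4. CasRx is an RNA-cutting enzyme, driven here by the CAG promoter, which is active in most cell types, and the guides were driven by U6. The mice studied by sequencing were injected at 6 months of age, and the striatum was taken 1.5 months later. WT mice lack both the knock-in allele and CasRx, so the parts of the allele and of the vector in an HD value set against WT cannot be told apart. Library totals ranged from 27184356 to 32102121 counts, and all 8 genes were among the 19463 tested. Htt is the gene that carries the knock-in, and the guides were designed against its human exon 1. Htt was at 181.5 to 190.7 CPM (counts scaled to library size with TMM factors) in the WT group. It was at 140.4 to 149.6 CPM in the Untreated group and 130.5 to 139.7 CPM in the Treated group. Untreated mice, which had no HTT guides, were already below WT (log2 fold change −0.37, Benjamini-Hochberg adjusted p = 0.00656 in edgeR's quasi-likelihood fit). Between Treated and Untreated mice Htt was at −0.10, which did not pass (adjusted p = 0.942, unadjusted P = 0.131, same fit). These counts are for the gene as a whole, so a change in the knock-in transcript alone was not tested. Transcripts of 4 Y-linked genes were present in 4 mice, the 3 WT mice and Untreated 1 (3435 to 5005 counts), and had 0 counts in the other 5. All WT mice had them and no Treated mouse did, so sex and group cannot be told apart in Treated against WT values. Untreated against WT values are confounded in the same way apart from Untreated 1. A model term for these transcripts rests on Untreated 1 set against Untreated 2 and Untreated 3.

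Scn2b and Scn4b are neighbours on chromosome 9, with RefSeq starts 20748 bases apart and in the same orientation. Their upstream windows are shown because these adjacent beta subunit genes have very different fold changes against WT in HD mice. Each line gives the 250 bases before the start, 5′ to 3′ on the plus strand of GRCm38.p6, from the RefSeq promoter table. Capitals mark CpG dinucleotides.
Scn4b, chr9:45138374-45138623: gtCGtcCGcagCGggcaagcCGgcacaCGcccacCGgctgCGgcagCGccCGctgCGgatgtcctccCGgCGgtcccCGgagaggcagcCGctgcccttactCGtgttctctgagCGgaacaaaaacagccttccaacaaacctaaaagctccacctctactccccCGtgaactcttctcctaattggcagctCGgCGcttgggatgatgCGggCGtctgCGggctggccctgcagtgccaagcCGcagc
Scn2b, chr9:45117626-45117875: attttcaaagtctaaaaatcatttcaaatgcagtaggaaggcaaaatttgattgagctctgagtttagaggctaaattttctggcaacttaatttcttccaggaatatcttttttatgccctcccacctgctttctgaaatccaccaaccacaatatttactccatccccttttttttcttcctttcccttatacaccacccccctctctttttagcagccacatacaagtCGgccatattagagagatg
The Scn4b window held 23 CpG dinucleotides at 66% G + C, and the Scn2b window held 1 at 38.4%. Over all 32851 windows of this length the medians were 6 CpG and 52.4% G + C. At least as many CpG as in the Scn4b window were found in 13.3% of windows, and at most as many as in the Scn2b window in 18.8%. Neither window held, on either strand, GGGCGG (found in 32.7% of windows), TATAAA (12.4%), TGACG (17.8%) or CACGTG (6.02%). Windows were found for 6 of the 8 genes, all but Scn3a and Scn3b.

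Scn4b, the beta subunit of striatal projection neurons, was at 1082, 1266 and 1267 CPM in the WT mice. In Untreated mice it was at 296.5, 327.2 and 254.8 CPM, and in Treated mice at 368.7, 370.6 and 360.8 CPM. Every HD mouse was far below every WT mouse, and every Treated mouse was above every Untreated mouse, so the order of the levels was WT, Treated, Untreated. Relative to WT, Scn4b stood at 24.3% in Untreated mice (log2 fold change −2.04, SE 0.11) and at 30.4% in Treated mice (−1.72, SE 0.11). These values are a description, since the gene was picked on them. Between Treated and Untreated mice, Scn4b was 1.25-fold higher (log2 fold change 0.32, SE 0.10, 95% interval 0.09 to 0.56). This difference did not pass the test over all genes (Benjamini-Hochberg adjusted p = 0.886 and unadjusted P = 0.0113 in edgeR's quasi-likelihood fit), and the Untreated mice in it were also those on which the gene was picked. Among the 5 mice without Y-linked transcripts the log2 fold change was 0.35 (adjusted p = 0.5137). In these bulk samples, fewer projection neurons, less Scn4b RNA per neuron and a different share of cortical tissue cannot be told apart. Slc17a7, a gene of cortical neurons, averaged 383.4 CPM in WT, 879.8 CPM in Untreated and 554.3 CPM in Treated mice. The part of cortical tissue in the Scn4b values was not tested. By NeuN, the paper saw no significant change in neuron number after treatment of HD mice.

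**Figure D1:**
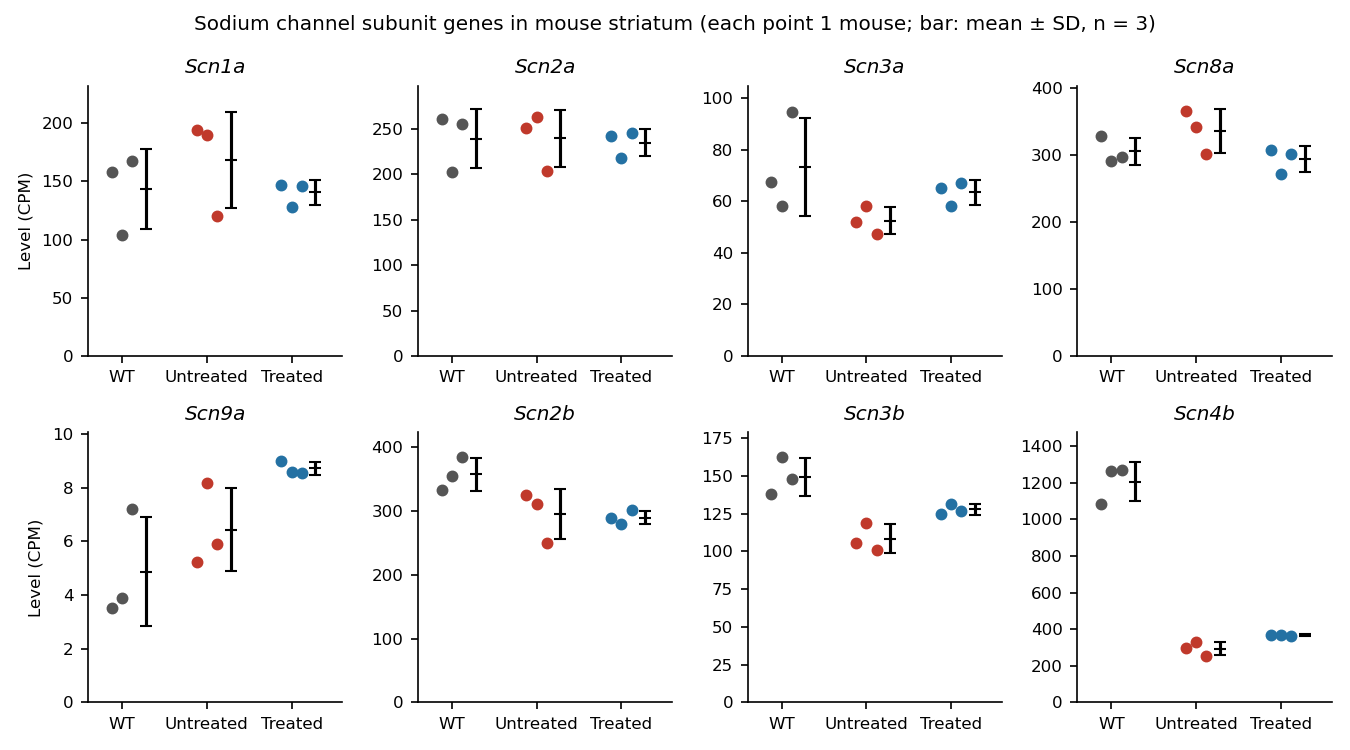
Level of each of the 8 sodium channel subunit genes in each mouse, in CPM on axes that start at 0, with the group mean and SD (n = 3) beside the points. Scn4b sat between 1082 and 1267 CPM in WT mice and between 254.8 and 370.6 CPM in all 6 HD mice, while for Scn1a, Scn2a and Scn8a the groups overlapped.

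The neuronal beta 3 gene Scn3b, whose product associates non-covalently with the alpha subunit, was the one gene to pass the test against WT in Untreated mice among the 7 genes other than Scn4b, in a comparison where 10.7% of all genes tested passed. It was at 137.8, 162.3 and 147.8 CPM in WT mice and at 105.6, 119 and 100.6 CPM in Untreated mice. Treated mice had 125, 131.7 and 126.5 CPM. All 3 Untreated mice were below all WT mice, and the Treated mice lay between the 2 other groups without overlap with either. Scn3b fell in Untreated mice to 72.6% of WT (log2 fold change −0.46, SE 0.08, adjusted p = 0.0116, edgeR). It was at 85.6% of WT in Treated mice (−0.23, SE 0.08, adjusted p = 0.16) and 1.18-fold higher in Treated than in Untreated mice (0.24, SE 0.08, adjusted p = 0.886, unadjusted P = 0.0185). The call against WT was kept with each mouse left out in turn (adjusted p 0.00737 to 0.03894). It was lost in a fit of the WT and Untreated mice alone (−0.46, adjusted p = 0.05), in a fit with a term for Y-linked transcripts (−0.50, adjusted p = 0.1124), and among the 4 mice with those transcripts (−0.48, adjusted p = 0.4268), where 1 Untreated mouse is set against the WT mice.

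Scn2b encodes beta 2, which like beta 4 is joined to the alpha subunit by a disulfide bond. It was at 332.6, 354.7 and 385.2 CPM in WT mice, 325, 311 and 250.6 CPM in Untreated mice and 289.3, 279.4 and 301 CPM in Treated mice. Each HD mouse was below each WT mouse, by a much smaller margin than for Scn4b, and the HD groups overlapped each other. Scn2b was at 82.7% of WT in Untreated mice (log2 fold change −0.28, SE 0.10, adjusted p = 0.116) and at 81.1% in Treated mice (−0.30, SE 0.10, adjusted p = 0.132), and did not pass the test in either. Without Untreated 3, whose level was the lowest of the 9, the adjusted p of the Treated comparison was 0.04965 at the same fold change. With a term for Y-linked transcripts the log2 fold change against WT was −0.14 in Untreated and −0.09 in Treated mice (adjusted p = 0.6845 and 0.9411). Between Treated and Untreated mice the 95% interval of the log2 fold change ran from −0.26 to 0.20.

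Scn8a, the main alpha subunit of the axon initial segment and of nodes of Ranvier in adult neurons, was at 328.5, 290.2 and 296.6 CPM in WT mice. Untreated mice had 364.7, 340.8 and 300.4 CPM, and Treated mice 307.7, 271.4 and 301.7 CPM. The groups overlapped in all 3 comparisons. Its log2 fold change was 0.14 in Untreated mice against WT (95% interval −0.07 to 0.34, adjusted p = 0.368) and −0.06 in Treated mice (−0.26 to 0.15, adjusted p = 0.775, and 0.003 without TMM factors). The largest of its differences, between Treated and Untreated mice, was −0.19 (−0.40 to 0.02, adjusted p = 0.897).

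Scn2a, the alpha subunit of unmyelinated axons and of the initial segment during development, was at 260.9, 202.3 and 255.5 CPM in WT mice, 251.5, 263.6 and 203.8 CPM in Untreated mice, and 241.9, 217.6 and 245.2 CPM in Treated mice. One mouse in each of the WT and Untreated groups was low and the groups overlapped throughout. The mean was 239.6 CPM in both WT (SD 32.38) and Untreated mice (SD 31.6, n = 3 each). The 95% interval of the log2 fold change was −0.28 to 0.28 in Untreated and −0.30 to 0.25 in Treated mice against WT (adjusted p = 0.999 and 0.923).

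Scn1a, an alpha subunit known for its role in fast-spiking interneurons, varied more between mice of a group, relative to its mean, than Scn2a and Scn8a. It was at 158.4, 104 and 167.3 CPM in WT, 194.3, 189.6 and 120.5 CPM in Untreated mice and 146.7, 128.3 and 146.4 CPM in Treated mice. WT 2 and Untreated 3 were the lowest mice of their groups for Scn1a, and also for Scn2a and Scn8a. No comparison of Scn1a passed the test (log2 fold change 0.23 with 95% interval −0.23 to 0.70 for Untreated against WT, −0.03 with −0.49 to 0.44 for Treated against WT, adjusted p = 0.505 and 0.956). The summed level of the 5 alpha genes was 658.5 CPM in WT 2 and 678.1 CPM in Untreated 3, the lowest and the second lowest of the 9 mice, against up to 867.7 CPM in Untreated 1. These 2 libraries also stood apart in markers of other cells. WT 2 had 3458 CPM of the choroid plexus gene Ttr, against 21.17 to 1136 CPM in the other mice. Untreated 3 had the most Gfap, an astrocyte gene (574.8 CPM), Aif1 of microglia (17.39 CPM) and Cd8a of T cells (19.06 CPM). Of the other astrocyte markers it also had the most Aqp4 and Slc1a3. Its Aldh1l1, Slc1a2 and Gja1 (58.27, 2265 and 123.1 CPM) lay within the range of the other mice. All other microglia markers were highest in it too. So were the T cell markers Cd3e, Cd3g and Trac, while its Cd4 was the lowest of the 9 mice (14.47 CPM). The part of these cells in the alpha values was not tested.

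Scn3a, an alpha subunit best known from the embryonic brain, was at 67.51, 58.1 and 94.69 CPM in WT, 51.95, 58.07 and 47.5 CPM in Untreated mice and 65.36, 58.15 and 67.35 CPM in Treated mice. The Untreated mice were lowest, but Untreated 2 lay within 0.1 CPM of the lowest WT and Treated mice, so the groups were separated by very little. The fitted value in Untreated mice was 71.5% of WT (log2 fold change −0.48, SE 0.16, adjusted p = 0.0869), which did not pass, while DESeq2 gave an adjusted p of 0.03283. Without WT 3, which had the highest level of the 9 mice, it was −0.26. In Treated mice the value was −0.21 against WT (adjusted p = 0.503), and 0.03 without WT 3.

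Scn9a, the alpha subunit of nociceptors, had 93 to 294 counts a library. It was at 3.513, 3.891 and 7.212 CPM in WT, 5.227, 8.195 and 5.912 CPM in Untreated mice and 9.009, 8.599 and 8.56 CPM in Treated mice. The 3 Treated mice were close together and above all other mice. Scn9a was 1.79-fold higher in Treated than in WT mice (log2 fold change 0.84, SE 0.28, 95% interval 0.22 to 1.46), which did not pass the test (adjusted p = 0.123). It passed without WT 3, the WT mouse with the highest level (1.24, adjusted p = 0.0256), and with DESeq2 (0.84, adjusted p = 0.03901). With a term for Y-linked transcripts it was 0.41 (adjusted p = 0.8965), and the value in Untreated mice against WT was 0.10. The differences between Untreated and WT mice (0.40, adjusted p = 0.375) and between Treated and Untreated mice (0.44, adjusted p = 0.954) did not pass.

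In counts, 1 of the 7 genes other than Scn4b was called at an adjusted p under 0.05 between Untreated and WT mice, Scn3b, where 10.7% of all genes tested were called, 4.58% higher and 6.1% lower. By the study's rule, taken from its figure legends as an unadjusted P under 0.05 with at least a 2-fold change, 0 of the 7 and 8.16% of all genes were called. CPM of the 2 groups did not overlap for 3 of the 7, all lower (Scn3a, Scn2b and Scn3b), against 30.1% of all genes in either direction and 15.1% lower. DESeq2 called 2 of the 7, Scn3a and Scn3b, with 17.8% of all genes called. The median log2 fold change of the 7 was 0.00, beside 0.02 over all genes. Between Treated and WT mice edgeR called 0 of the 7, with 3.69% of all genes called, 0.904% higher and 2.78% lower. The study's rule called 0 of the 7 and 5.22% of all genes. At an unadjusted P under 0.05 there were 3 of the 7, beside 21.4% of all genes, and DESeq2 called 1, Scn9a, with 10% of all genes called. Groups did not overlap for 3 of the 7, Scn9a higher and Scn2b and Scn3b lower, against 28.6% of all genes (13.4% higher and 15.1% lower), and the median was −0.06 beside 0.00.

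Between Treated and Untreated mice edgeR called 0 of the 8 genes and 0% of all genes tested. Unadjusted P was under 0.05 for 2 of the 8, Scn3b and Scn4b, and for 1071 genes or 5.5% overall. The study's rule called 0 of the 8 and 0.771% of all genes. DESeq2 called 0 of the 8, and over all genes 35 higher and 10 lower. Treated mice were above Untreated mice without overlap for 4 of the 8, Scn3a, Scn9a, Scn3b and Scn4b, where 15.8% of all genes did not overlap and did so with Treated higher in 6.92% and lower in 8.83%. The 8 genes had a median log2 fold change of 0.10, beside −0.01 over all genes. All 3 comparisons share groups of mice pairwise, so their values are not independent of each other.

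**Figure D2:**
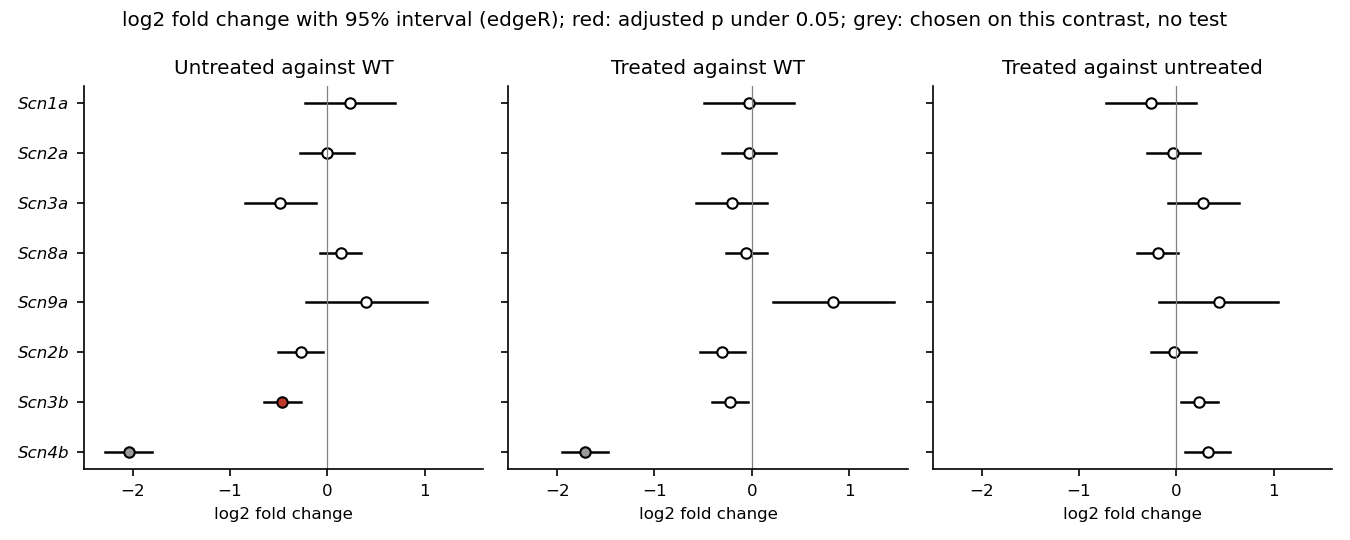
Log2 fold change (x axis) of the 8 subunit genes in the 3 comparisons, as points with 95% intervals from the edgeR fit of all 9 mice. The red point passed an adjusted p under 0.05 (Scn3b at −0.46 in Untreated against WT), and grey points mark Scn4b against WT, which was not tested.

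Within a library, the share of all alpha subunit counts held by each alpha gene needs no scaling between mice. Scn8a held 40.1% ± 3.98 (SD, n = 3) of the alpha counts in WT, 41.98% ± 2.34 in Untreated mice and 39.61% ± 0.358 in Treated mice. Scn2a held 31.23% ± 0.58, 29.89% ± 0.843 and 31.69% ± 0.263, and Scn1a 18.5% ± 2.4, 20.74% ± 2.57 and 18.94% ± 0.16. These shares moved by at most a few points between groups.
The share of Scn3a was 8.245%, 8.823% and 11.53% in WT mice, 5.988%, 6.75% and 7.004% in Untreated mice and 8.481%, 8.5% and 8.756% in Treated mice. Its share in each Untreated mouse was below that in each mouse of the other groups. Scn9a held 0.6327%, 0.8089% and 1.18% on average in WT, Untreated and Treated mice, and its share was above those of the other groups in each Treated mouse. Among 15 two-sided exact permutation tests of 3 mice against 3, which cannot give a p under 0.1, the smallest adjusted p was 0.25.

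**Figure D3:**
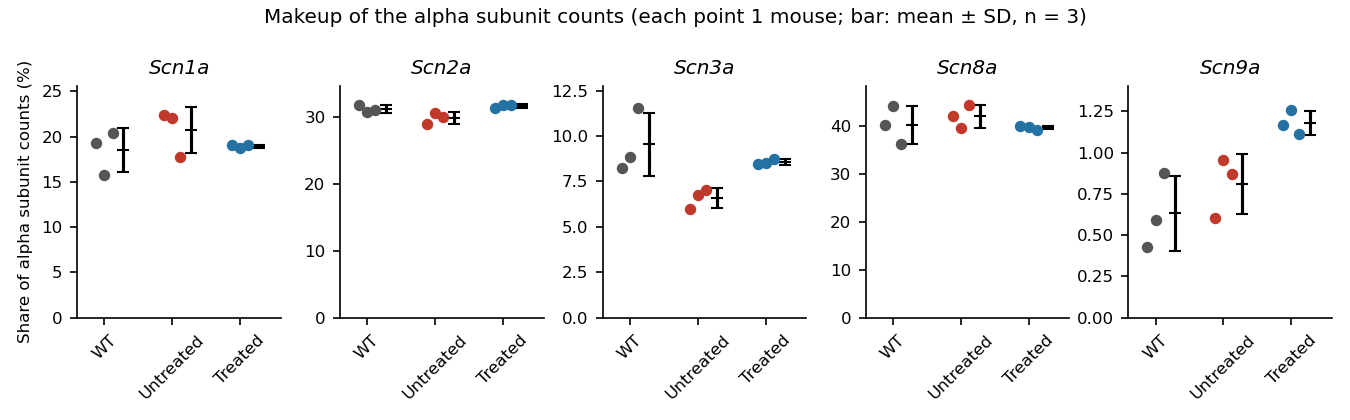
Share of the alpha subunit counts of each library held by each alpha gene, in percent on axes that start at 0, with the group mean and SD (n = 3). The Scn3a shares of the Untreated mice, 5.988% to 7.004%, lay below those of the WT mice, 8.245% to 11.53%.

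Of 5 other sodium channel genes described here, 3 were tested and edgeR called 0 in each comparison. Over all genes edgeR called 10.7% in Untreated against WT, 3.69% in Treated against WT and 0% in Treated against Untreated mice. Scn7a, a sodium channel of glia, was at 1.37 on the log2 scale in Untreated mice against WT (adjusted p = 0.108 in edgeR, unadjusted P = 0.0217, called by DESeq2) on 24 to 194 counts a library. The leak channel gene Nalcn, at 83.41 to 115.9 CPM, was between −0.14 and 0.14 in the 3 comparisons. At an unadjusted P under 0.05 Scn7a was the 1 gene of the 3, in that comparison alone, where 28.6% of all genes had such a P. DESeq2 called 17.8% of all genes there, and called no other of the 3 in any comparison. Scn10a did not pass, and Scn4a and Scn11a were too low to test.

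Markers of cortical glutamatergic neurons, a cell type outside the striatum, had their highest values in Untreated mice, with overlap between Untreated and WT mice. The summed level of 6 of them was 2150, 1496 and 1044 CPM in WT mice, 2596, 2080 and 2355 CPM in Untreated mice and 1733, 1789 and 1589 CPM in Treated mice, and none of the 6 was at 0. Nrgn, which the striatum also expresses, made up much of this sum (840.8 to 1390 CPM) and was at 0.16 on the log2 scale in Untreated mice against WT. The median log2 fold change of the 6 was 1.21, edgeR called 1 of them, Neurod2 (1.68, adjusted p = 0.036), and the study's rule called 5. Over all genes edgeR called 10.7% and the study's rule 8.16%. Slc17a7, the vesicular glutamate transporter that defines these neurons, ranged from 165.1 to 684 CPM in WT and from 784.1 to 962.6 CPM in Untreated mice. Their part in the values of the subunit genes, Scn4b and the alpha genes among them, was not tested.

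Proteins that hold sodium channels at the axon initial segment, or that bind, phosphorylate or ubiquitinate them, were represented by 29 genes, all tested. In Untreated mice against WT edgeR called 1 of the 29 higher and 4 lower, where 4.58% and 6.1% of all genes were called. DESeq2 called 2 higher and 7 lower, adding Fgf12, Ank3, L1cam and Nedd4, where it called 17.8% of all genes. Camk2b, a kinase subunit that also binds actin, fell from 1139, 1347 and 1233 CPM to 766.1, 830.3 and 798.4 CPM (log2 fold change −0.64, SE 0.08, adjusted p = 0.00249). Fgf11, an intracellular FGF homologous factor, fell by 0.65 on the log2 scale (adjusted p = 0.0144). Sptbn4, the beta IV spectrin of the initial segment, fell by 0.47 (adjusted p = 0.0343), and Nedd4l, a ubiquitin ligase that acts on sodium channels, fell by 0.68 (adjusted p = 0.0399). Prkca, a protein kinase C, rose by 0.32 (adjusted p = 0.0303). The list as a whole was centred where all genes were, with a median of 0.02 for both.

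In Treated mice against WT, Camk2b was the only edgeR call among the 29 (−0.54, SE 0.08, adjusted p = 0.0097), at 876.5, 840.9 and 839.1 CPM. EdgeR called 3.69% of all genes there. DESeq2 called 4 of the 29, all lower, Camk2b, Fgf11, Nedd4l and Sptbn4, where it called 10% of all genes. Between Treated and Untreated mice edgeR called 0 of 29 (0% of all genes), 1 had an unadjusted P under 0.05 (5.5% of all genes), and DESeq2 called 1 (0.231% of all genes). That gene was Prkca, at 147.4 to 162.5 CPM in Untreated and 112.3 to 127.5 CPM in Treated mice (−0.36, SE 0.08, adjusted p = 0.736 in edgeR). Ank3, which encodes ankyrin G, the anchor of sodium channels at the initial segment, was at −0.29 in Untreated mice (adjusted p = 0.0898). The channel-binding factors Fgf12, Fgf13 and Fgf14 were at 0.67 (adjusted p = 0.0618), 0.14 and −0.24 in the same comparison, and neither they nor Ank3 passed in edgeR.

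Scn4b was then set beside the markers of the cells that express it. All 15 striatal projection neuron markers, among them Drd1, Drd2, Adora2a and Ppp1r1b, fell in Untreated mice against WT (median log2 fold change −1.63). EdgeR called all 15, beside 10.7% of all genes. In Treated mice 14 of the 15 were below WT without overlap (median −1.07), beside 15.1% of all genes. EdgeR called 12 of the 15 in that comparison, all lower, beside 3.69% of all genes. Their summed level was 9244 to 12570 CPM in WT, 3288 to 3906 CPM in Untreated mice and 5116 to 5211 CPM in Treated mice, with none at 0. Between Treated and Untreated mice all 15 were higher without overlap (median 0.59), of which edgeR called 0, 14 had an unadjusted P under 0.05 and DESeq2 called 8. Over all genes the shares, in the same order, were 6.92%, 0%, 5.5% and 0.231%. The 10 markers of all neurons summed to 5482 to 7017 CPM in WT, 6739 to 8171 CPM in Untreated mice and 6271 to 6662 CPM in Treated mice.

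Relative to the mean of the projection neuron markers in the same mouse, and with the WT mean set to 0, log2 Scn4b was at −0.45 ± 0.14 in Untreated mice (SD, n = 3) and at −0.70 ± 0.06 in Treated mice. The WT mice ranged from −0.11 to 0.13. By this measure the HD mice ranged from −0.31 to −0.76, a description that follows in part from the choice of the gene for its fall in these mice. Single markers had fallen as far as Scn4b in Untreated mice, with log2 fold changes of −2.22 for Penk, −2.13 for Adora2a and −2.05 for Pde10a. The Treated mice, which had more Scn4b than the Untreated mice, had less of it relative to these markers. Relative to the markers of all neurons, Scn4b was at −2.28 ± 0.15 in Untreated and −1.78 ± 0.05 in Treated mice. The other 7 genes were all above WT relative to the projection neuron markers, from 1.13 for Scn3b to 2.04 for Scn9a on average in Untreated mice. This follows from the fall of the markers, whose mean was at −1.595 in Untreated and −1.013 in Treated mice. Any gene that fell less than they did lies above 0 by this measure. Relative to all neurons Scn3b was at −0.69 ± 0.16 and Scn3a at −0.69 ± 0.15 in Untreated mice, and Scn8a at −0.10 ± 0.02. The mean of the markers of all neurons was itself at 0.232 in Untreated mice, which lowers every value set against it. Without this reference the log2 fold change against WT was −0.46 for Scn3b and −0.48 for Scn3a.

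**Figure D4:**
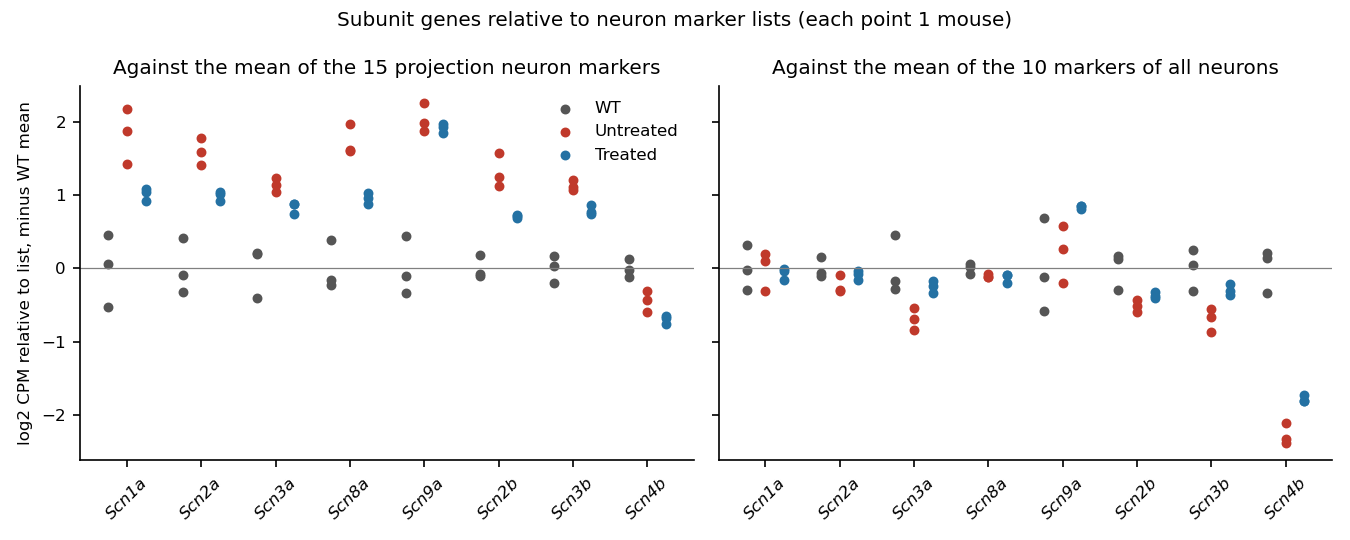
Log2 level of each subunit gene relative to the mean of 15 striatal projection neuron markers (left) or of 10 markers of all neurons (right), with the WT mean at 0 and 1 point per mouse. Of the 8 genes, only Scn4b, picked for its fall, lay below 0 on the left in all HD mice, at −0.31 to −0.76. The reference on the left itself fell in HD mice, so any gene that fell less lies above 0.

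Among 10577 genes with at least 10 CPM on average, 8 other genes had a profile within 0.2 of that of Scn4b, as the root mean square difference of log2 CPM over the 9 mice after centring on WT. The closest was Gm49702 (0.126), followed by Pde10a (0.14), the cyclic nucleotide phosphodiesterase of striatal projection neurons. Lrrc10b (0.149), Dbp, a clock-controlled transcription factor (0.155), Htr1b, a serotonin receptor (0.161), Traip, a ubiquitin ligase (0.164), Ptprv (0.17) and ENSMUSG00000118401, an ID without a symbol in the table used for names (0.188), came next. Pde10a was at 1272, 1543 and 1653 CPM in WT mice, 356.2, 419.7 and 307.1 CPM in Untreated mice and 547.7, 517.3 and 523 CPM in Treated mice. The other subunit genes described here were left out of this search, as were genes under 10 CPM on average. Their likeness to Scn4b was therefore not measured.

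**Figure D5:**
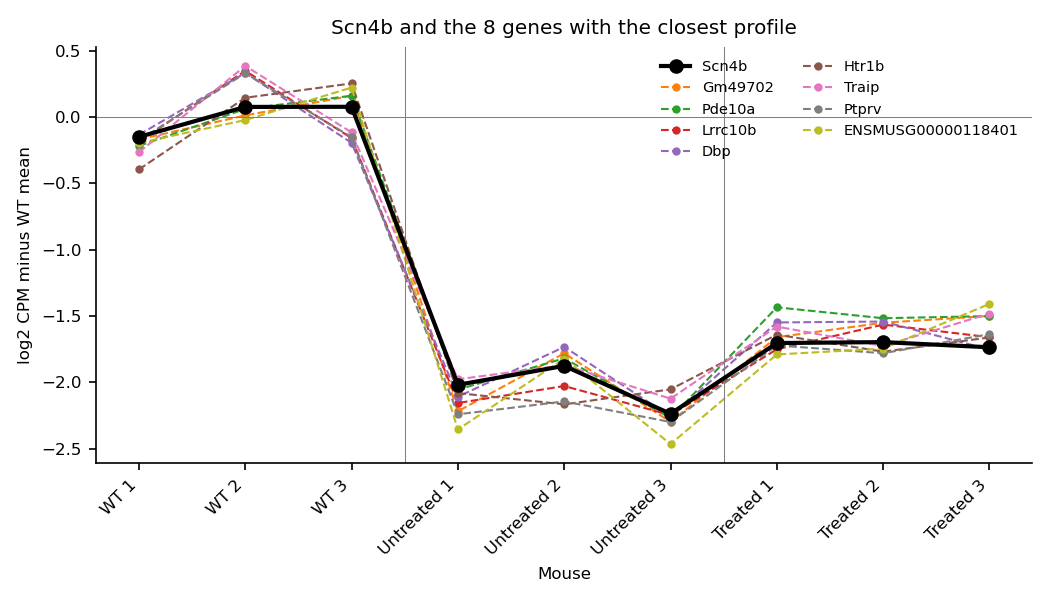
Log2 CPM minus the WT mean (y axis) in each of the 9 mice (x axis) for Scn4b, drawn in black, and the 8 genes with the closest profile. The genes were chosen for this likeness, with root mean square differences from 0.126 to 0.188.

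Genes that overlap a subunit gene or lie beside it were checked because the strand setting used for counting is not given in the sources used here. Of 10 such genes 5 were tested. Gm13629 and Gm13630, which lie at the Scn1a and Scn9a genes, had at most 106 and 43 counts in a library and did not pass in any comparison. Gramd1b, beside Scn3b on chromosome 9, was at 259.8, 296.2 and 257.6 CPM in WT mice, 222.3, 204.9 and 187.1 CPM in Untreated and 175.7, 196.6 and 203.5 CPM in Treated mice. It fell in both HD groups against WT (log2 fold change −0.41, adjusted p = 0.0267, and −0.50, adjusted p = 0.0218).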

How the data were processed

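Mouse striatum RNA was sequenced from its 3′ ends, primed with oligo-dT. The authors deposited raw counts per Ensembl gene, whole numbers without normalization. The study's methods name STAR, whereas the submitters' processing notes name Trimmomatic 0.39, FastQC 0.11.9, HISAT2 2.2.1 and featureCounts 2.0.1 with the pig build Sscrofa11.1, and the mouse build, the strand setting and any collapsing of molecular identifiers are not given in the sources used here. In reads counted without strand, a gene and an antisense partner cannot be told apart. In the last 500 bases of transcripts, 3.6% of Scn1a and 2.3% of Scn3a 50-base stretches were shared with other genes, and 0% for the other members. Of 55357 gene IDs, 94.1% matched the name table. Some items of the gene lists are not reported here. The pig counts were not used, since no table here pairs pig IDs with symbols.

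Counts were fitted with edgeR 4.0.16 in R 4.3.3 (filterByExpr, TMM, glmQLFit on all 9 mice, 6 residual degrees of freedom, glmQLFTest). A call was a Benjamini-Hochberg adjusted p under 0.05 over 19463 genes. The study's rule, unadjusted P under 0.05 and at least 2-fold, was an alternative. It is the rule of the paper's figure legends, whereas the paper's methods section names a stricter P. SE is the log2 fold change over the square root of F, and intervals are 95%. Log2 CPM used a prior count of 2. Other alternatives were library totals, RLE factors, DESeq2 1.42.0, other filters, a fit of 2 groups, a replicate block, a term for Y-linked transcripts and each mouse left out. Limiting the mice to those with or without Y-linked transcripts was added after seeing the data. The edgeR fit of Untreated against WT mice was tested on simulated counts, and the other steps were not. The named genes were the 8 members, other sodium channel genes, channel partners that passed the test and 4 fixed ones, the 8 genes most like Scn4b, chromosome neighbours and Htt. Members and lists were chosen with earlier results of these data known. Figures were drawn with matplotlib 3.10.9.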

Additional observations from a re-analysis of the deposited data

How the results depend on the processing

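Of 424 recomputed values of the 8 genes, 387 kept their direction and their side of the threshold. Scn4b kept its direction under every alternative, with log2 fold changes of −2.135 to −1.95 in Untreated and −1.797 to −1.67 in Treated mice against WT, and 0.234 to 0.418 in Treated against Untreated mice, when each mouse was left out. Between Untreated and WT mice the count of called genes among the 7 was 2 with DESeq2 and 0 in the fit of 2 groups (Scn3b adjusted p = 0.05), with the Y-linked term, among mice with Y-linked transcripts and under the study's rule. Between Treated and WT mice it was 1 with DESeq2 and 0 to 1 with each mouse left out, the 1 being Scn9a without WT 3 and Scn2b without Untreated 3. The cause was not tested.

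Small values near 0 changed sign. In Treated against WT, Scn1a, Scn2a and Scn8a were at 0.032, 0.031 and 0.003 with library totals and at 0.298, 0.077 and 0.13 with the Y-linked term. With each mouse left out they ranged from −0.204 to 0.109, −0.127 to 0.03 and −0.09 to 0.004, and Scn3a from −0.342 to 0.028. In Untreated against WT, Scn2a was at −0.002 without a filter and at −0.105 to 0.104 with mice left out. In Treated against Untreated, Scn2a and Scn2b were at 0.007 and 0.046 with the Y-linked term, at 0.019 and 0.058 in mice without Y-linked transcripts, and at −0.132 to 0.051 and −0.133 to 0.052 with mice left out. Without TMM factors 55.4% of calls between Untreated and WT mice were higher, against 42.9% with them, and 38.7% against 24.5% between Treated and WT mice. Deviations of same-numbered mice from their group means had correlations of −0.081 to 0.236. Mice of different numbers were not compared, so whether the numbers pair mice cannot be told. With the replicate block Scn3b was at −0.462 in Untreated mice (adjusted p = 0.008463), and no call changed. With 3 mice a group, an interval that holds 0 does not show that a gene is unchanged.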
